A study of Equus caballus with 32 samples.

Results

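The chains of MHC class II and the genes that fit them with peptide were followed in whole blood under 10 gene names, of 14668 on the array. The chains were DRA, DRB, DQA and DQB, their loading partners CD74, HLA-DMA and HLA-DMB, the processing enzymes CTSS and IFI30, and the regulator CIITA. Every array probe whose deposited gene name was one of these was taken, which gave 25 probes under 7 names. CD74 and IFI30 stood under gene IDs that the RefSeq gene table pairs with those symbols, and HLA-DMA under a locus described as DM alpha chain-like, which added 7 probes. The 32 probes are part of 43987 on the array, and all 32 were among the 26368 probes bright enough to be tested. The genes were chosen by the levels of these same arrays, on which some chain probes divided the mares into high and low, so the levels that show this division are given as a description with no test. The 6 probes so divided entered the fit over all probes and the counts over the 32 probes, but no group difference of that fit is given for them. Their differences are printed only where leaving out a slide turned their sign, and nothing is read from them.

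MHC class II molecules are pairs of an alpha and a beta chain that show peptides from taken-up proteins to CD4 T cells. The new pair is guided by the invariant chain CD74, proteases such as cathepsin S (CTSS) and the thiol reductase IFI30 help to prepare CD74 and antigen, and the DM pair then exchanges the CD74 remnant for a peptide. Transcription of the whole set depends on CIITA. The beta chains and the DQ alpha chain are among the most variable proteins between individuals, while DRA varies little. In blood the molecules are known from B cells, monocytes and dendritic cells, and in adult horses also from T cells.

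Venous blood was taken from 32 Welsh Pony mares 30 days after weaning, 16 with a progressive and 16 with a brutal weaning. Both groups share breed, sex, tissue and time, and the labels describe neither the weaning procedures nor ages. Each mare gave 1 single-colour Agilent array, and each of the 4 slides held 4 mares of each group. A level is the log2 signal of a probe minus the 75th percentile of its array, so that 1 unit is a 2-fold change and 0 is that percentile, and levels of different probes are not compared with each other. The 75th percentile lay between 339.5 and 646 intensity units, and an array had 53.0 to 66.0% of its spots well above background as the scanner software marks them. To be tested, a probe had to be so marked in 8 or more of the 16 mares of either group, and 27 of the 32 member probes did so on all 32 arrays. Of the marker genes listed for blood cells, 12 of 14 B cell, 7 of 10 monocyte, 5 of 9 dendritic cell, 10 of 11 T cell and 10 of 12 neutrophil genes were bright enough to be tested. In whole blood, fewer cells of a type and less RNA per cell cannot be told apart.

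The chain probes fall on different stretches, and the DRB and DQA probes are listed for several transcripts at separate places. Below are sequences of probes that divided the mares into high and low, beside a DRB and a DQB probe that did not. The 5′ end stands on the left, and places are those of the file headers on the EquCab1 assembly. The first is the start of a stretch of 56 bases that 5 probes, A_69_P006446 to A_69_P006450, share at offsets of 1 base. Their gene name in the files is DRB, but their description is that of a DQ beta chain mRNA, and they have no place on the assembly. They shared no run of 12 bases with any other class II probe examined. The second is a probe to a clone described as ELA-DQB, which is no member by name and also has no place. The next pair are DRB probes on chromosome 20, at 26789850 to 26797526 and at 26800239 to 26801032, and each spans more bases of the genome than its own length. A_69_P038336 is listed in the files for 3 DRB transcripts. The last is the DQB probe, at 26466902 to 26466961 on the minus strand of the same chromosome.
DQ beta mRNA, first 30 shared bases: catagactgttcaagagaaacacttgaagc
A_69_P004956: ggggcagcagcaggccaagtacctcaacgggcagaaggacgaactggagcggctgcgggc
A_69_P002437: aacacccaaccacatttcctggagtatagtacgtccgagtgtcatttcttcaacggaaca
A_69_P038336: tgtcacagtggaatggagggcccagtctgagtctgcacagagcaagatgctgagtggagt
A_69_P002421: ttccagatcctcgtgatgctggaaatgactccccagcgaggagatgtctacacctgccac

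The DQ alpha probes lie on 3 stretches, which are listed for different transcripts. A_69_P002417 (chromosome 20, 26223948 to 26224007) and A_69_P001522 (no place) lie over the same stretch, with 50 matching bases, 2 substitutions and 3 bases that only A_69_P002417 has. An unnamed probe, A_69_P116053, matched A_69_P002417 at 35 of the 43 bases that overlap. Below are 30 bases of each from the same aligned start. Capitals mark bases without a partner in A_69_P001522 on the first line and substitutions against the first line on the third, and the 30 bases of A_69_P001522 hold no substitution.
A_69_P002417: ttgttacctactatGggatGcctGggacat
A_69_P001522: ttgttacctactatggatcctggacattcc
A_69_P116053: ttgttacctaTtatgggaACcctggAGTat
Apart from these lie A_69_P038321 (chromosome 20, 26450189 to 26450497) and A_69_P038326 (chromosome 20, 26538415 to 26538474). A_69_P038326 overlapped a probe of a locus described as DQ alpha 2 chain-like, A_69_P118756, which the headers place on chromosome 5 at 45793133 to 45793192. The capitals mark the overlap of 30 bases, in which 28 match and the substitutions are C2T and T14C, counted from 1 at the 5′ end of A_69_P038326.
A_69_P038326: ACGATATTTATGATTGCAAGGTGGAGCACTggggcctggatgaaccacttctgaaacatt
A_69_P118756: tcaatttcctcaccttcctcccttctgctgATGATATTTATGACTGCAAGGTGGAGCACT

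The 5 probes of the DQ beta mRNA divided the mares into 18 that were bright and 14 that were dark. On A_69_P006446 the 18 high mares had levels of 4.58 to 6.16 and the 14 low mares levels of -7.68 to -5.28, and none of the 14 stood well above background. No mare lay in between, and the gap of 9.86 is measured against spots at background, whose order carries no information. On the other 4 probes the gaps were 8.94, 9.43, 8.43 and 7.94, and 12 or 13 of the low mares were not well above background. The high mares were the same 18 on all 5 probes, which share nearly all of their bases and are 1 measurement rather than 5. On A_69_P006448 the spot of the mare progressive 16, low on the other 4, was left out as an outlier by the scanner software.

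Of the 16 progressive mares 10 were high on this stretch, and of the 16 brutal mares 8. The low mares were progressive 2, 4, 6, 7, 14 and 16 and brutal 3, 6, 9, 10, 12, 14, 15 and 16. By slide, 2, 2, 4 and 2 of the 4 progressive mares were high on slides 1 to 4, against 3, 3, 1 and 1 of the 4 brutal mares. Both levels were therefore present in both groups on 3 of the 4 slides, and on slide 3 all 4 progressive mares were high.

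Levels were called separate where the largest gap between neighbouring mares, with at least 3 mares on each side, was 1 unit or more. Of the 32 member probes, 6 met this, the 5 of the DQ beta mRNA and the DRB probe A_69_P002437, against 0.448% (118) of all tested probes. As the members were chosen for this property, nothing is read from that count. The smallest gap inside the threshold was 2.13, for A_69_P002437, and the largest outside it was 0.57, for the DQA probe A_69_P002417.

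**Figure D1:**
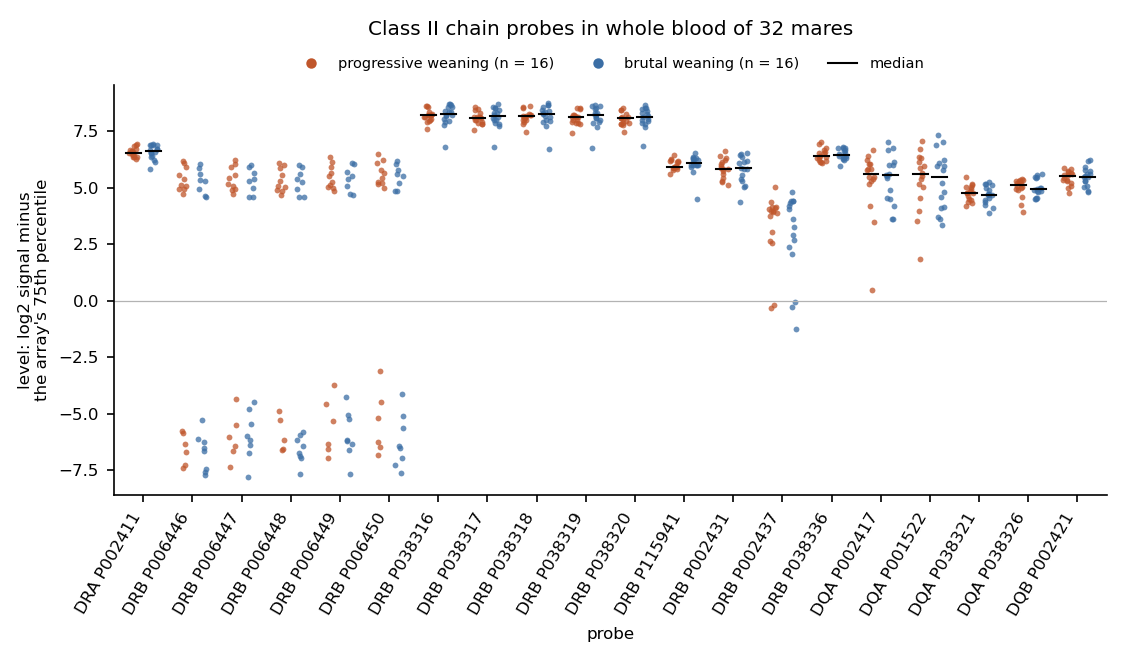
Level of each of the 20 chain probes (vertical axis, log2 signal minus the array's 75th percentile) in 16 progressive mares (orange, left of each pair) and 16 brutal mares (blue, right), 1 point per mare; bars are group medians, left out for the 6 probes with separate levels. The 5 probes P006446 to P006450 have 2 clouds in both groups, P002437 has 5 low mares, and the 2 DQA probes P002417 and P001522 are wide, with no gap of 1 unit that leaves 3 mares on each side.

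A_69_P002437, a DRB probe, had 5 low mares. They were progressive 6 and 12 at -0.20 and -0.30, and brutal 1, 3 and 6 at -0.27, -0.05 and -1.24. The other 14 progressive and 13 brutal mares lay between 2.07 and 5.04. Unlike the DQ beta probes, this one stood well above background in all 32 mares, so the low level was a measured signal. The 2 divisions of the mares were different ones. Of the 18 mares high on the DQ beta stretch 16 were high on A_69_P002437, and of the 14 low ones 11 were high on it.

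The remaining DRB probes showed no such gap. The neighbouring DRB probe A_69_P038336, listed for 3 DRB transcripts, ran from 6.10 over a median of 6.37 to 7.03 in progressive mares, against 5.97, 6.46 and 6.78 in brutal mares. None of the 5 mares low on A_69_P002437 was among its 6 lowest. Over all 32 mares the standard deviation (SD) was 1.70 for A_69_P002437 and 0.26 for A_69_P038336, which stood at percentiles 99.6 and 36.0 among the SDs of all tested probes.

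Another stretch under the name DRB, of a different transcript, was covered by 5 overlapping probes, A_69_P038316 to A_69_P038320. It lies at 26143258 to 26143321 on the minus strand of chromosome 20. A_69_P038316 ran from 7.59 over 8.19 to 8.60 in progressive mares, against 6.77, 8.27 and 8.71 in brutal mares. The lowest of the 32 was brutal 16 on all 5, and also on A_69_P115941 of the same transcript, at 4.47 against 5.60 in the next mare, and on A_69_P002431, a DRB probe of another transcript, at 4.37 against 5.03. Brutal 16 was lowest on 11 of the 32 member probes, with 5.80 on DRA, 5.51 on CD74 and 3.37 on HLA-DMA, and 54.1% of the spots of its array were well above background. The groups overlapped on each of these probes. A probe to a DRB1 allele, no member by name, had its lowest level in this mare too, at 6.28 against 6.91 in the next.

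The overlapping DQA probes varied widely, and neither had a gap of 1 unit with 3 mares on each side. On A_69_P002417 progressive mares ran from 0.46 over 5.61 to 6.68, against 3.60, 5.54 and 7.01 in brutal mares. On A_69_P001522 progressive mares ran from 1.84 over 5.59 to 7.06, against 3.34, 5.48 and 7.32 in brutal mares. Progressive 15 stood apart as the lowest on both, at 0.46 against 3.49 in the next mare on A_69_P002417 and at 1.84 against 3.34 on A_69_P001522, and brutal 8 was highest on both. The order of the mares was nearly the same on the 2 probes, with a Spearman's rho of 0.93 over 32 mares, and the probes share much of their sequence. Their SDs were 1.28 and 1.29, against 0.38 for A_69_P038321 and 0.40 for A_69_P038326. The latter are DQA probes listed for other transcripts and placed elsewhere on chromosome 20.

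The DQB probe A_69_P002421 also had no gap. It ran from 4.75 over 5.50 to 5.86 in progressive mares, against 4.78, 5.48 and 6.22 in brutal mares.

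Beyond the members, 6 more probes examined for their sequence or their pattern divided the mares, and these were chosen after their values were seen. At its largest gap A_69_P116051, an unnamed probe, divided them exactly as the DQ beta stretch did, with 18 mares at 4.06 or above and 14 at -0.20 or below. Of the 14, brutal 10 and 16 lay at -0.20 and -0.44, well above background, and the others at -4.24 or below. Apart from the DQ beta probes it was the only probe of those tested with that division. The unnamed A_69_P116052, A_69_P116053 and A_69_P116054, which overlap each other, had 20 high mares, the same 18 and brutal 10 and 16, with gaps of 3.98, 1.80 and 2.32. The unnamed A_69_P101451 had 21, those 20 and progressive 6. On it brutal 10, brutal 16 and progressive 6 lay in between, at -1.23, -0.89 and -0.45. Its other high mares were at 2.43 or above and its low mares at -5.50 or below. In sequence, A_69_P116054 matched the DQA probe A_69_P002417 at 22 of the 23 bases that overlap. A_69_P116051 shared a run of 19 bases with A_69_P116052.

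The headers place A_69_P116052 at 45793602 to 45793661 of chromosome 5, 410 bases after A_69_P118756. That probe of the DQ alpha 2 chain-like locus had levels of 4.20 to 5.71 in all 32 mares, with no gap above 0.23. The ELA-DQB clone probe A_69_P004956 was high in 3 mares, progressive 2 at 4.15 and brutal 6 and 15 at 4.22 and 4.57, while the other 29 had levels of -3.56 or below. All 3 were low on the DQ beta stretch and on the 5 unnamed probes.

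**Figure D2:**
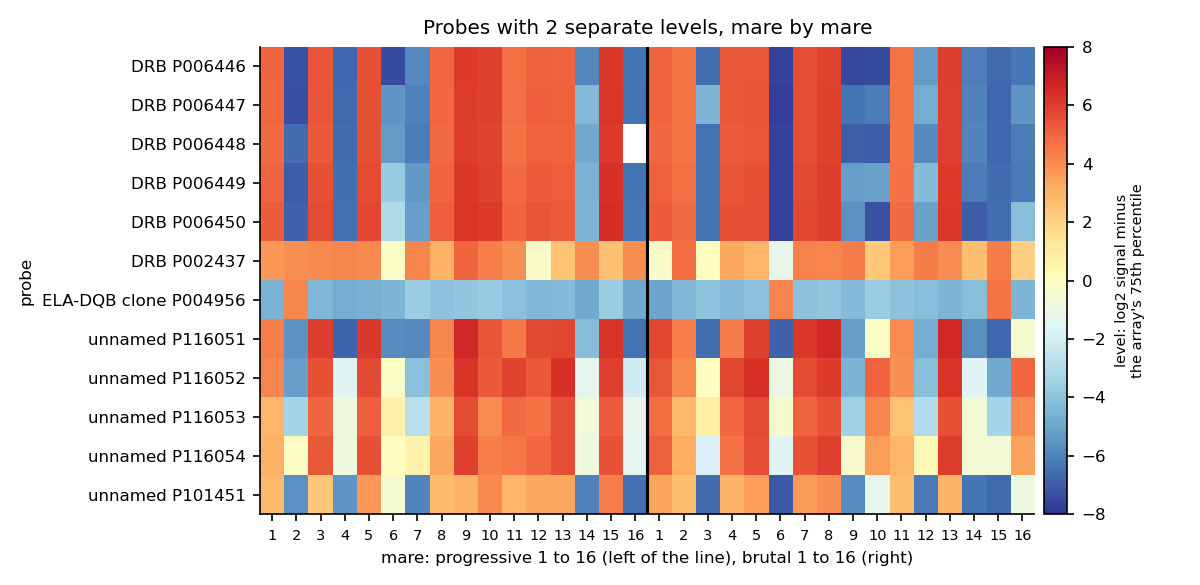
Level (colour, log2 signal minus the array's 75th percentile) of the 6 member probes and 6 other probes with separate levels, with progressive mares 1 to 16 left of the line and brutal mares 1 to 16 right of it; the white cell is a spot left out as an outlier. The 5 DQ beta probes and P116051 have the same 18 high mares, P116052 to P116054 add brutal 10 and 16, and P004956 is high in 3 mares that are low on those probes.

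The comparison of the kinds of weaning asks whether class II transcripts differed in the blood 30 days later. No member differed past the threshold: none of the 26368 tested probes (0.0% called) had an adjusted p under 0.05 in limma with Benjamini-Hochberg adjustment, and the smallest among the members was 0.996. At an unadjusted p under 0.05 in limma there were 2 of the 32 member probes, against 2.75% (726) of all tested probes. Both were IFI30 probes that share 59 bases and are 1 measurement rather than 2. The 32 probes form 19 separate stretches, so these counts take overlapping probes more than once. Of the 32 probes, 22 were lower after progressive weaning, against 55.7% of all tested probes, and the median difference was -0.04 against -0.01. All 22 were among the 26 member probes without separate levels, and nothing is read from the signs of the other 6. These counts depended on the scaling: 9 of 32 were lower after quantile normalisation and 8 in the deposited series table. Of all probes, 13080 of 26368 and 12687 of 25619 were lower under these 2 scalings.

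DRA averaged 6.56 ± 0.20 in progressive mares and 6.56 ± 0.32 in brutal mares (SD, n = 16 each). The difference, progressive minus brutal, was -0.01 with a standard error (SE) of 0.10 and a 95% interval of -0.20 to 0.19. The DRB probes without separate levels had differences of -0.06 to 0.08, DQB of -0.06 (SE 0.13) and the other DQA probes A_69_P038321 and A_69_P038326 of 0.09 and 0.00. Without brutal 16, DRA had a difference of -0.06 and the 5 overlapping DRB probes of -0.14 to -0.12, still with an adjusted p of 0.961 in limma.

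The overlapping DQA probes A_69_P002417 and A_69_P001522, which varied widely between mares, had differences of -0.14 (SE 0.44) and 0.02 (SE 0.44). Without progressive 15 these were 0.18 and 0.25, so the sign of A_69_P002417 rested on that mare. On A_69_P002417 the slides gave 0.84, 1.01, -0.44 and -1.97, so the sign depended on the slide.

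**Figure D3:**
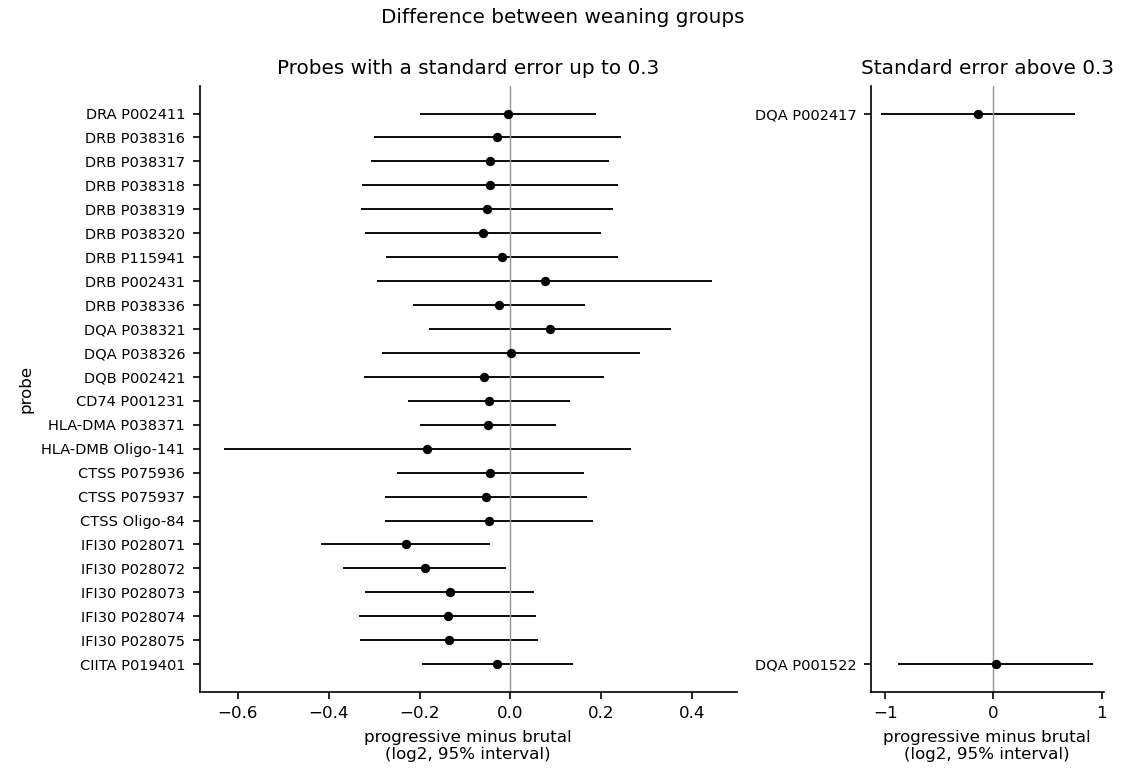
Difference between the groups (horizontal axis, progressive minus brutal, log2) with its 95% interval from limma for each of the 26 member probes without separate levels, 24 with an SE up to 0.3 on the left and 2 above it on the right on a wider axis. The intervals of IFI30 P028071 and P028072 lie below 0 before adjustment over all tested probes, and all others include 0.

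Among the processing genes IFI30, a lysosomal reductase that interferon gamma induces, was lower after progressive weaning on all 5 of its overlapping probes. On A_69_P028071 progressive mares ran from 4.89 over 5.15 to 5.65, against 5.01, 5.47 and 5.93 in brutal mares. The groups overlapped, and the 3 highest mares were brutal 3, 8 and 12. The difference was -0.23 (SE 0.09, unadjusted p = 0.017, adjusted p = 0.996 in limma). On A_69_P028072 it was -0.19 (SE 0.09, unadjusted p = 0.039 in limma), and on the other 3 it lay between -0.14 and -0.13. By slide, A_69_P028071 gave -0.45, -0.23, -0.12 and -0.12, so the progressive mares were lower on 4 of 4 slides. Without slide 1 the difference was -0.16, and with quantile normalisation -0.15. Of the 7 tested monocyte markers 5 were also lower, against 55.7% of all tested probes. A summed level is the log2 of the summed unlogged levels of a list, so its brightest markers weigh most. That of the 7 averaged 7.64 ± 0.37 in progressive mares and 7.82 ± 0.39 in brutal mares (SD, n = 16 each). Of these, CCR2 had a difference of -0.36 and LYZ of -0.29 (unadjusted p = 0.017 and 0.043, adjusted p = 0.996 in limma), and both are named after their values were seen. CD14, VCAN and CX3CR1 had differences of -0.08, -0.02 and -0.03, and CSF1R and CD68 were higher in progressive mares, at 0.08 and 0.02. The part of the monocyte markers in the IFI30 difference was not tested.

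HLA-DMB, the beta chain of the DM pair, had the most variable probe of the processing genes, with an SD of 0.64 over all 32 mares. Its probe Oligo-141 ran from 4.61 over 5.42 to 6.57 in progressive mares, against 4.62, 5.89 and 6.74 in brutal mares. The difference was -0.18 (SE 0.22) and did not pass the test. A further probe that shares 50 bases with it, A_69_P101401, ordered the mares in nearly the same way (rho 0.93 over 32 mares), with a difference of -0.15 (SE 0.12). Its SD was smaller, at 0.35. Of the DM beta chain-like locus, A_69_P038366 to A_69_P038368 had SDs of 0.24 to 0.26, and A_69_P118891 to A_69_P118895 of 0.36 to 0.41. The wide spread was therefore that of Oligo-141. HLA-DMA, the partner chain, averaged 3.74 ± 0.16 in progressive mares and 3.78 ± 0.24 in brutal mares (SD, n = 16 each), with a difference of -0.05 (SE 0.07).

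CD74, the invariant chain, averaged 6.04 ± 0.22 in progressive mares and 6.08 ± 0.26 in brutal mares (SD, n = 16 each). Its difference was -0.05 with a 95% interval of -0.23 to 0.13. CIITA averaged 1.15 ± 0.27 in progressive mares and 1.18 ± 0.17 in brutal mares (SD, n = 16 each), with a difference of -0.03 (SE 0.08). The 3 CTSS probes, which do not overlap, had differences of -0.05 to -0.04 and ordered the mares alike, with rho of 0.96 to 0.98 over 32 mares. On all 3 progressive 9 was lowest and progressive 14 highest, so both ends of the range lay in 1 group.

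**Figure D4:**
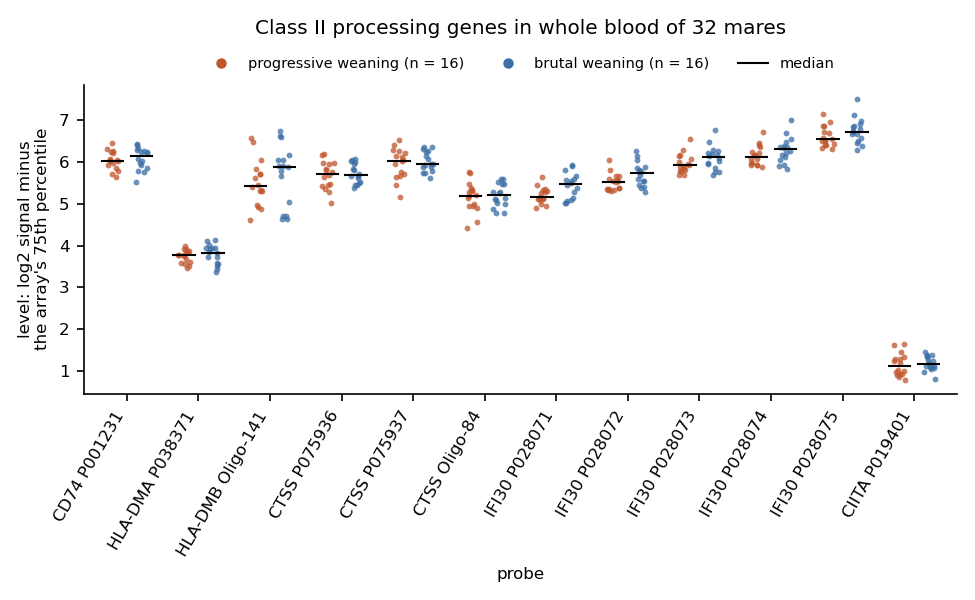
Level of each of the 12 probes of CD74, HLA-DMA, HLA-DMB, CTSS, IFI30 and CIITA (vertical axis, log2 signal minus the array's 75th percentile) in 16 progressive mares (orange, left) and 16 brutal mares (blue, right), 1 point per mare, with group medians as bars. The groups overlap on each probe, the HLA-DMB probe Oligo-141 is the widest, and the 5 IFI30 medians are lower in progressive mares.

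Of 32 further symbols of the pathway (regulators, cathepsins, DO and DP chains, costimulators and CD4), 18 were on the array and 16 were tested. None passed the adjusted threshold, and none had an unadjusted p under 0.05 in limma. After progressive weaning 13 were lower and 3 higher, against 55.7% lower among all tested probes, and the median difference was -0.04. The 4 with the smallest p were AP1S1, an adaptor of protein sorting, at -0.16, CST3, an inhibitor of cathepsins, at -0.09, CREB1, a transcription factor of class II promoters, at -0.04, and CD4, the receptor of class II, at -0.08. The summed level of the T cell markers ran from 7.07 to 7.98 in progressive mares and from 7.05 to 7.98 in brutal mares. For the B cell markers it ran from 4.12 to 5.46 in progressive mares and from 3.92 to 5.41 in brutal mares. The monocyte markers ran from 7.07 to 8.39 in progressive mares and from 6.89 to 8.21 in brutal mares. The dendritic cell markers, of which XCR1 and ZBTB46 were too dim to be tested, ran from 0.90 to 1.61 in progressive mares and from 0.74 to 1.54 in brutal mares. The groups overlapped over most of each of these ranges. The neutrophil markers ran from 6.51 to 8.92 in progressive mares and from 6.77 to 8.57 in brutal mares. Of these 10 markers 10 were lower in progressive mares, against 55.7% of all tested probes, with a median difference of -0.28. Not every list leaned this way. Progressive mares had the higher mean on 8 of the 12 tested B cell markers (median difference 0.04). The same held for 4 of the 5 tested dendritic cell markers (0.09) and for 4 of the 10 T cell markers (-0.03). The part of the neutrophil markers in the differences above was not tested.

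Across the mares, the chains did not all follow the same order. DRA and the overlapping DRB probes A_69_P038316 to A_69_P038320 had rho of 0.88 to 0.89, DRA and HLA-DMB 0.72, DRA and CD74 0.38, and DRA and DQB 0.01, each over 32 mares on shared arrays. CD74 and CIITA had a rho of 0.72. The rho with DRA ran from 0.20 to 0.64 for the 10 tested T cell markers, from -0.38 to 0.33 for the 12 B cell markers and from -0.15 to 0.33 for the 7 monocyte markers. With CD74 it ran from -0.06 to 0.44 for the T cell markers, from -0.10 to 0.46 for the B cell markers and from 0.23 to 0.52 for the monocyte markers.

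The 3 named genes most like DRA in their order over the mares were TSTA3, TBL3 and TRMT112, with rho of 0.80 to 0.82. TBL3 was among the 3 for each of the 5 overlapping DRB probes, at 0.80 to 0.82, beside ANKRD39, MEF2BNB, ANAPC15, SLC2A8, ECSIT and COX5A. CD74 was most like RUFY1, TESK1 and PLD4 (0.79 to 0.82), DQB most like STK25, ZNF71 and OLR1 (0.63 to 0.67), and A_69_P002437 most like ZNF830, MAPRE1 and MDH1 (0.70 to 0.74). For the DQA probe A_69_P038326 the 3 were SAMD4A, RFX5, which binds class II promoters, and PYGO2 (0.60 to 0.66), and for the DQA probe A_69_P002417 they were MRPL52, DYNLL1 and UTP23 (0.74 to 0.81). Of the other DQA probes, A_69_P001522 was most like MRPL52, GLO1 and TMEM11, and A_69_P038321 most like HSP90AB1, CCT5 and MRPS5. Of the other DRB probes, A_69_P115941 was most like DHRS1, CBX8 and ZDHHC16, A_69_P002431 most like NOL7, CCS and DYNLL1, and A_69_P038336 most like EEF1B2, UTP23 and LRRC24. These are the highest of 25981 probes with a value on every array and share libraries and scaling.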

How the data were processed

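RNA of whole blood from 32 mares was measured on 1 array each. Per the file headers, the intensity of each spot in the deposited files was extracted with Agilent Feature Extraction 10.10.1.1 and corrected for background. The deposited series table holds log2 values of 25619 probes, with array medians of 8.397 to 8.399. Its values were compared by rank with the scanner files, with a correlation of 0.996 or more on each array. Its normalisation, not given in the sources used here, could not be repeated, and it serves as an alternative only.

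The processed signal of non-control spots was turned to log2, the array's 75th percentile was subtracted, outlier spots (2483 in all) were left out, and spots of a probe were averaged. No spot was saturated. A probe was tested if well above background on at least 8 of 16 arrays of a group. Groups were compared with limma 3.58.1 (R 4.3.3), two-sided, Benjamini-Hochberg over 26368 probes, threshold 0.05; no pairing is labelled. The fit was tested on simulated data. The depth of an array cannot be counted, so the number of arrays limits the precision.

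The members and gene lists were chosen with earlier results of these data known. Named genes were all member probes, the 3 genes most alike per chain probe and CD74, and 4 pathway genes with the smallest p; no alike genes are given for the DQ beta probes, whose low mares have no readable order. Alternatives were normexp (offset 50), quantile normalisation, another percentile, the series table, slide as a block, filters, arrays or slides left out, robust eBayes, a gap of 1.5 and 2 mares per side. Leaving out brutal 16 or progressive 15 was added after seeing the data. Genes outside the members are represented by their brightest tested probe. Among the genes most alike, each is represented by its most alike probe instead. Python 3.11.15 with pandas 2.3.3 and matplotlib 3.10.9 was used. RefSeq names came from a table on another assembly than the headers', so none of its coordinates are given.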

Additional observations from a re-analysis of the deposited data

How the results depend on the processing

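No paired analysis was possible because the labels give no pairs of mares across the groups. Over 36 differences (32 member probes and 4 pathway genes) and their alternatives, 471 of 535 values kept their sign and 64, of 27 differences, turned it. No probe had an adjusted p under 0.05 in limma under any of these settings, 406 to 868 had an unadjusted p under 0.05, and the smallest adjusted p among these differences was 0.932. Slide as a block left each difference as it was but that of A_69_P006448, and IFI30 kept its sign on all 5 probes. The cause of the turned signs was not tested.

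With quantile normalisation the differences, progressive minus brutal, turned for DRA (0.086), the DRB probes A_69_P038316 to A_69_P038319 (0.036, 0.022, 0.016 and 0.014), A_69_P115941 (0.065) and A_69_P038336 (0.061), DQB (0.026), CD74 (0.043), HLA-DMA (0.0052) and the CTSS probes (0.028, 0.036 and 0.024). In the series table they turned for DRA (0.080), the DRB probes A_69_P038316 to A_69_P038320 (0.040, 0.021, 0.032, 0.024 and 0.0014), A_69_P115941 (0.066) and A_69_P038336 (0.065), DQB (0.042), CD74 (0.050), HLA-DMA (0.0058) and CTSS (0.029, 0.030 and 0.018). The number of member probes lower after progressive weaning was accordingly 9 and 8 under these scalings, against 22, and 15 to 28 under all others. With the percentile over probes well above background on all arrays DRA (0.016) and A_69_P115941 (0.0039) turned, and without the array progressive 16 DRA (0.0093). Without brutal 16, left out after seeing the data, A_69_P002431 (-0.018) and A_69_P038326 (-0.0014) turned, and 24 member probes were lower. Without progressive 15, also left out after seeing the data, A_69_P002417 (0.18) and A_69_P038326 (-0.020) turned. Over these 2 leave-outs A_69_P002431 ran from -0.018 to 0.10, A_69_P002417 from -0.17 to 0.18 and A_69_P038326 from -0.020 to -0.0014.

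Without slide 1 the DRB probes A_69_P115941 (0.024) and A_69_P002437 (-0.072), the DQA probes A_69_P001522 (-0.37) and A_69_P038326 (-0.0096) and CTSS (0.011, 0.0081 and 0.019) turned. Without slide 2 it was DRA (0.013), A_69_P038316 to A_69_P038320 (0.039, 0.021, 0.032, 0.029 and 0.012), A_69_P115941 (0.016), A_69_P001522 (-0.37) and CIITA (0.0013). Without slide 3 it was the DQ beta probes (-0.98, -0.96, -0.19, -0.53 and -0.53, sizes that rest on spots at background), A_69_P115941 (0.010), A_69_P038321 (-0.034) and A_69_P038326 (-0.18). Without slide 4 it was DRA (0.0057), A_69_P038336 (0.0082), A_69_P002417 (0.47), HLA-DMA (0.0061), CIITA (0.032) and CD4 (0.021).

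The number of member probes with separate levels was 6 under 7 of the 8 alternatives, and 1 under the stricter filter, which leaves out the 5 DQ beta probes because their low mares are at background. Signals at background limit these probes: the size of their gap and the order of their low mares cannot be read.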

Other observations

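The DO chains, which are known to act on DM, were measured by 3 probes under descriptions outside the gene names used above, chosen after their values were seen. The DO beta probes A_69_P038341 and A_69_P038342 averaged 1.38 ± 0.49 and 0.83 ± 0.52 in progressive mares, against 1.16 ± 0.49 and 0.58 ± 0.47 in brutal mares (SD, n = 16 each). The differences were 0.22 (SE 0.17) and 0.25 (SE 0.17), and neither passed the test. The DO alpha probe A_69_P038381 averaged -2.20 ± 0.31 in progressive mares and -2.22 ± 0.37 in brutal mares (SD, n = 16 each). Of the DM beta chain-like locus, 5 overlapping probes of a predicted variant, A_69_P118891 to A_69_P118895, had differences of 0.13 to 0.23, while its 3 other probes had -0.09 to -0.07, and none passed the test.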
